A study of Mus musculus with 6 samples.

Results

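Toll-like receptors are the membrane receptors with which macrophages recognise microbial products, and 9 of them are described here with the co-receptor gene Cd14 in bone marrow-derived macrophages given interferon-gamma (IFN-γ). The 10 genes, Tlr1, Tlr2, Tlr3, Tlr4, Tlr6, Tlr7, Tlr8, Tlr9, Tlr13 and Cd14, were chosen by name and make up 10 of the 36706 rows of the deposited tables. Of these, 5 act at the cell surface (Tlr1, Tlr2, Tlr4, Tlr6 and Cd14) and 5 in endosomes (Tlr3, Tlr7, Tlr8, Tlr9 and Tlr13). The series holds 6 RNA-seq libraries of macrophages labelled WT, 3 left untreated and 3 given IFN-γ, all at 3 h. The macrophages were grown from bone marrow cells in 10% serum and 20 ng/mL M-CSF, the growth factor that drives macrophage differentiation. The sources used here do not give the IFN-γ dose or the age, sex and number of the mice. No label ties the replicates to separate mice or cultures, so a p-value here reflects the spread among these libraries, which may be technical.

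The surface receptors bind lipids and lipoproteins of the microbial envelope. TLR2 works as a pair with TLR1 or TLR6, and TLR4 binds lipopolysaccharide together with the protein encoded by Ly96, to which CD14 hands the ligand. The endosomal receptors bind nucleic acids after uptake and need the chaperone encoded by Unc93b1 to leave the endoplasmic reticulum. IFN-γ is known to prime macrophages for stronger responses to such ligands, and many interferon-induced genes are known to carry the gamma-activated sequence (GAS) or the interferon-stimulated response element (ISRE); interferon regulatory factors bind the latter.

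Libraries held 28133342 to 34233607 counts. Levels below are in CPM, counts relative to the library's total with TMM scaling, and 3 counts in a library corresponded to 0.089 to 0.101 CPM. Untreated replicate 2 had the steepest trend on exon length: genes with long exon sequence were lower in it, with a slope of -0.139 log2 units for each doubling of length against the mean of the other untreated libraries. The same slopes of the other 5 libraries were between -0.0366 and 0.1002. By chi-square over its degrees of freedom on the counts, untreated replicate 1 was instead the furthest from the others. This was 74.4 for untreated replicates 1 and 2, 48.4 for 1 and 3, and 25.5 for 2 and 3. Defining macrophage genes were abundant in every library, with Csf1r at 25933 counts or more and Adgre1 at 26652 or more. The T cell gene Cd3e had 0 counts, the B cell gene Pax5 had at most 1 count in a library, and the neutrophil gene Ly6g at most 2. Other markers of these lists were detected: the neutrophil genes S100a8 and S100a9 had 915 to 1445 counts untreated and 1610 to 2308 with IFN-γ, and the B cell gene Cd79b had 100 to 140 counts over all libraries.

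Promoter windows, 250 bases before to 30 after the annotated start, were searched for 7 of the 10 genes, 9 windows in all. They came from the RefSeq table of build GRCm38.p6, in which no window was found for Tlr4 and Tlr7. Cd14 was left out of the search, so nothing is said here about its promoter. The GAS letters TTCNNNGAA were found in 3 of the 9 windows, belonging to Tlr1, Tlr6 and Tlr8, against 7.83% of all 32851 windows. The ISRE core letters, GAAA, any 2 bases, GAAA, were found in 1 window, of Tlr6, against 3.28% of all windows. The PU.1 letters GAGGAAGT occurred in a window of Tlr1 and in that of Tlr9 (2.82% of all windows), and the NF-κB letters, GGG, any 5 bases, CC, in windows of Tlr2, Tlr3 and Tlr6 (48.9% of all windows). All motifs were searched on both strands, the GAS letters read the same on both, and overlapping matches were each counted. A match describes letters and not a binding site. The windows with a GAS or ISRE match are shown because they include Tlr6, which rose, and Tlr8, which was not called. The matched bases are in capitals, and the 2 ISRE matches of Tlr6, which read on the opposite strand, overlap by 4 bases.
Tlr6, chr5:64960019-64960298, minus strand, GAS at -3 to 6 and at 8 to 16: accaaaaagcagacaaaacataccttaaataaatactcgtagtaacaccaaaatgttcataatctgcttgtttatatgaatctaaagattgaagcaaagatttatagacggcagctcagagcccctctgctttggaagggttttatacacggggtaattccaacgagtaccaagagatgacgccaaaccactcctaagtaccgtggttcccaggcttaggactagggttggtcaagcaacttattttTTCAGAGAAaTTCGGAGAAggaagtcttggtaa
Tlr6, chr5:64959137-64959416, minus strand, ISRE core at -116 to -107 and at -110 to -101: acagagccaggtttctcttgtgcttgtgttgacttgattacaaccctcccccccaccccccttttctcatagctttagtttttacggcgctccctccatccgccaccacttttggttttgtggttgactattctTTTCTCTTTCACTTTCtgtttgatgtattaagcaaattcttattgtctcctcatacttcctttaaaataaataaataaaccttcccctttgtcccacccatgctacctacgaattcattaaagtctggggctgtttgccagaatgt
Tlr1, chr5:64932670-64932949, minus strand, GAS at -228 to -220: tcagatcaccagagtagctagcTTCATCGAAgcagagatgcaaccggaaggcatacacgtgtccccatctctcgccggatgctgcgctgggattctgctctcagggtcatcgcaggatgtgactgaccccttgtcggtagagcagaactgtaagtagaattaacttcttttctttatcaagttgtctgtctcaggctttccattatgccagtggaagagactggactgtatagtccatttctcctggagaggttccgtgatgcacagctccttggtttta
Tlr8, chrX:167264300-167264579, minus strand, GAS at -106 to -98: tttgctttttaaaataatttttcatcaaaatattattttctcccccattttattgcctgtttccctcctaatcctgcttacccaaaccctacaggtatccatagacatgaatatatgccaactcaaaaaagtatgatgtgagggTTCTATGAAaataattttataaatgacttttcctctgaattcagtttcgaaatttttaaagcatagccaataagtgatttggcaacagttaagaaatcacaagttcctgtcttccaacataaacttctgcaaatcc

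IFN-γ raised 4 of the 5 surface genes and 3 of the 5 endosomal ones, and lowered 1 endosomal receptor. Tlr9, Tlr2, Tlr6, Tlr3 and Tlr1 reached 2-fold or more, while Tlr4 and Tlr7 rose less, Tlr13 fell, and Cd14 and Tlr8 were not called. All 10 passed the filter on low counts. Calls are by edgeR's quasi-likelihood test on all 12968 genes tested, with a Benjamini-Hochberg adjusted p under 0.05. Over all those genes 36.4% were called, 19.6% higher and 16.8% lower, and 6.17% higher at 2-fold or more. Among the members 7 of 10 were higher, 1 lower, and 5 higher at 2-fold or more. Tlr1 was at that cutoff, with a log2 fold change of 1.00 and a 95% interval from 0.86 to 1.15. Its change was below 2-fold with upper quartile scaling (0.86), total counts alone (0.83) and the filter of 5 CPM (0.97). The same held without untreated replicate 2 (0.95) or IFN-γ replicate 1 or 2 (0.99 each). The groups did not overlap for 8 of the 10, against 50.1% of all genes tested; IFN-γ libraries lay above for 7 (25.9% of all genes) and below for 1 (24.2%). Without untreated replicate 2 the same count of members was called, 7 higher and 1 lower, where 24.0% and 21.1% of 13206 genes were called. The split over all genes depended on scaling, with 13.9% higher and 31.6% lower by upper quartile and 12.8% higher and 34.9% lower by total counts alone, while 7 members stayed higher under both. In bulk RNA a change in the share of cells that express a gene and a change in RNA per cell cannot be told apart.

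**Figure D1:**
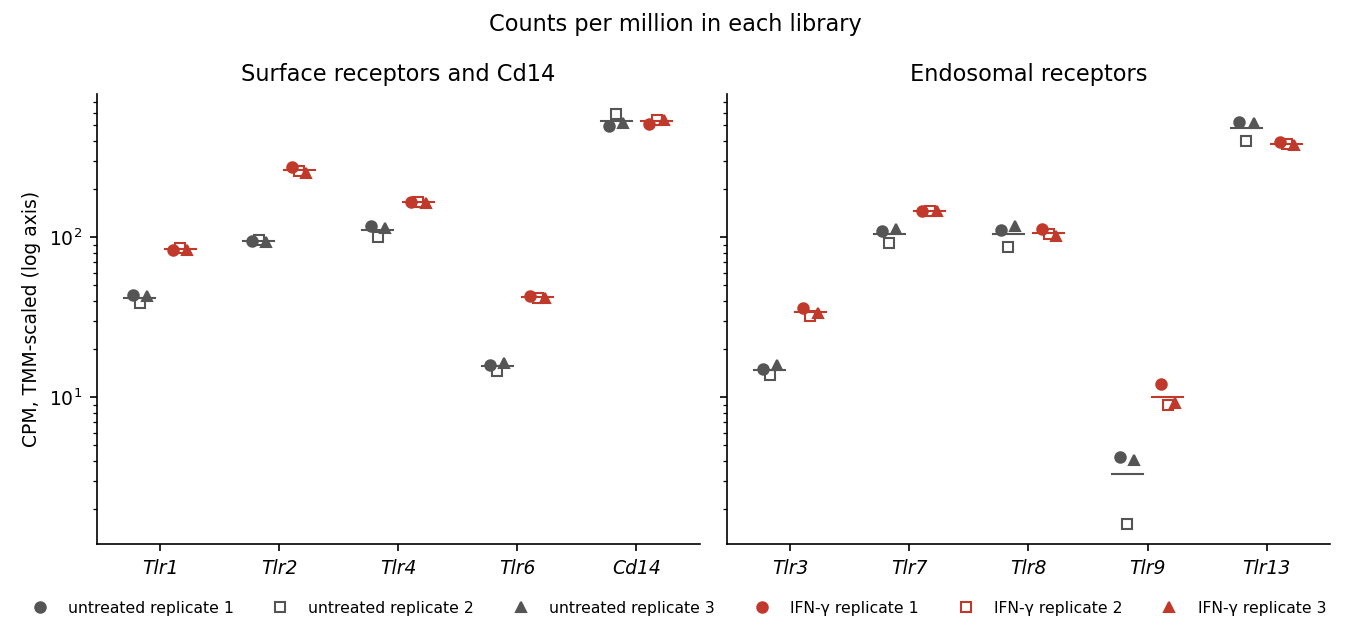
CPM of each gene (TMM-scaled, log axis) in the 3 untreated libraries (grey) and the 3 with IFN-γ (red), with short lines at the group means; symbols give the replicate, and replicate 2 is drawn open. The untreated replicate 2 point lies below the other untreated points for 8 of the 10 genes (all 5 endosomal receptors, Tlr1, Tlr4 and Tlr6) and above them for Tlr2 and Cd14.

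Tlr2, the shared chain of the lipoprotein receptors, had the highest level per length and the largest change of the surface receptors. Its counts were 2847, 2854 and 3130 in untreated replicates 1, 2 and 3, and 8922, 7904 and 7813 with IFN-γ. In CPM these were 94.6, 96.6 and 92.8, against 275, 257 and 252. Each IFN-γ library lay above each untreated one. Tlr2 rose by 1.46 ± 0.06 (SE) on the log2 scale, 2.76 times the untreated level (adjusted p = 4.23e-07 by edgeR). The tables place it on chromosome 3, from 83743579 to 83749045, minus strand.

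Tlr6, which pairs with TLR2 for diacylated lipopeptides, was at 15.8, 14.6 and 16.4 CPM untreated and at 43.2, 41.5 and 42.0 CPM with IFN-γ. The groups did not overlap, and Tlr6 rose by 1.44 ± 0.07 on the log2 scale (adjusted p = 1.3e-06 by edgeR). Tlr1, which pairs with TLR2 for triacylated lipopeptides, was at 43.6, 38.7 and 43.2 CPM untreated and 83.4, 85.3 and 82.9 CPM with IFN-γ. It rose by 1.00 ± 0.06 (adjusted p = 7.69e-06 by edgeR), again with no overlap.

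Tlr1 and Tlr6 are neighbours on chromosome 5, both on the minus strand. The deposited tables place Tlr1 from 65082023 to 65090945 with 3250 exon bases and Tlr6 from 65109379 to 65128387 with 4511. The tables name no build for these coordinates. They are not GRCm38 positions, since the GRCm38 coding run given below lies outside the span of each gene. The ratio of Tlr1 to Tlr6 TPM, a count per length, was 3.82, 3.69 and 3.66 untreated, against 2.68, 2.85 and 2.74 with IFN-γ, so Tlr6 gained on Tlr1 in every IFN-γ library. The counts of both are uncertain as single genes. In GENCODE M21 transcripts, 13.6% of the 50-base stretches of Tlr1 also occur in Tlr6, and 12.3% of those of Tlr6 in Tlr1. The sources used here do not say how reads that match both were counted. The longest identical run of the coding sequences has 229 bases, at bases 1468 to 1696 of the 2385 coding bases of Tlr1 (chr5:64925537-64925765, GRCm38, minus strand) and 1507 to 1735 of the 2418 of Tlr6 (chr5:64953828-64954056). It is shown because a read that lies inside it fits both genes.
Tlr1 and Tlr6, shared coding run: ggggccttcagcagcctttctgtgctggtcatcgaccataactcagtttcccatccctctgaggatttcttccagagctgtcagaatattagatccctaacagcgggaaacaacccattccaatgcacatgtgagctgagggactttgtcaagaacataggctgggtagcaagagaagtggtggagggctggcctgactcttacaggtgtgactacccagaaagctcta

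Tlr4, the lipopolysaccharide receptor (chromosome 4, 66745788 to 66765338, plus strand in the tables), had a smaller change than Tlr1, Tlr2 and Tlr6. It was at 117, 99.7 and 114 CPM untreated and at 166, 166 and 164 CPM with IFN-γ, a log2 fold change of 0.58 ± 0.07 (adjusted p = 0.000337 by edgeR). Every IFN-γ library lay above every untreated one. The lowest value over 15 other settings was 0.41, with libraries scaled by total counts alone, and Tlr4 was called in all 15.

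Cd14, the gene of the anchored co-receptor that loads lipopolysaccharide, was the most abundant of the 10 and showed no difference by the test. Its counts were 14941, 17396 and 17367 untreated and 16564, 16463 and 16740 with IFN-γ. In CPM these were 497, 588 and 515, against 510, 536 and 539, and the IFN-γ values lay within the untreated range. The log2 fold change was -0.01 ± 0.08, with a 95% interval from -0.19 to 0.16 (adjusted p = 0.916 by edgeR). Its sign depended on the setting: it was 0.06 without untreated replicate 2 (adjusted p = 0.319) and -0.18 with total counts alone, where it was called lower (adjusted p = 0.0482). Upper quartile scaling and total counts alone lowered the median of all genes by 0.147 and 0.17, and the Cd14 value moved alongside. The ratio of Cd14 to Tlr4 TPM needs no scaling between libraries. It was 21.5, 29.9 and 22.8 untreated and 15.5, 16.3 and 16.7 with IFN-γ, with no overlap.

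**Figure D2:**
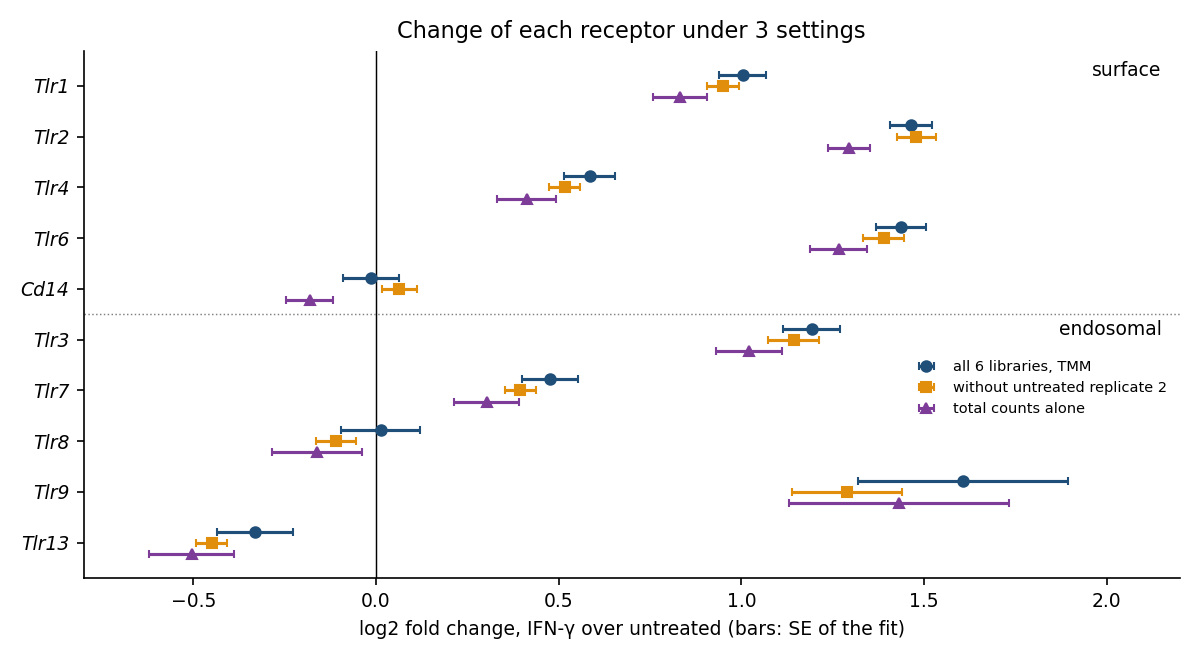
Log2 fold change of each gene, IFN-γ over untreated, with bars of 1 SE from the fit, for all 6 libraries with TMM scaling (circles), without untreated replicate 2 (squares) and with total counts alone (triangles). Tlr1, Tlr2, Tlr3, Tlr4, Tlr6, Tlr7 and Tlr9 lie above 0 and Tlr13 below it in all 3, while Cd14 and Tlr8 change sign.

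Among the endosomal receptors, Tlr3 and Tlr9 rose most. Tlr3, the receptor for double-stranded RNA (chromosome 8, 45848702 to 45864112, minus strand), was at 14.96, 13.9 and 15.9 CPM untreated and 36.2, 32.3 and 33.8 CPM with IFN-γ. The groups did not overlap and Tlr3 rose by 1.19 ± 0.08 on the log2 scale (adjusted p = 9.43e-06 by edgeR). Of its 50-base stretches 5.3% also occur in the GENCODE gene model Gm45542.

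Tlr9, the receptor for unmethylated CpG DNA (chromosome 9, 106099797 to 106104075, plus strand), had the fewest counts of the 10 genes: 128, 48 and 136 untreated and 395, 274 and 287 with IFN-γ. In CPM it was at 4.25, 1.62 and 4.03, against 12.2, 8.92 and 9.24. The untreated libraries themselves differed by over 2-fold, with replicate 2 the lowest, yet all lay below the IFN-γ libraries. Tlr9 rose by 1.61 ± 0.29 (adjusted p = 0.00305 by edgeR), the largest log2 fold change of the members with all libraries and the one with the widest error. Without untreated replicate 2 it was 1.29 ± 0.15 (adjusted p = 0.000148 by edgeR), below Tlr2 at 1.48 and Tlr6 at 1.39. Plasmacytoid dendritic cells and B cells are known for high Tlr9. Of the 5 plasmacytoid dendritic cell markers, Klk1 had 0 counts, and Siglech had 4, 4 and 12 counts untreated and 3, 14 and 14 with IFN-γ. Pacsin1 of the same list had 0, 0 and 0 counts untreated and 19, 10 and 22 with IFN-γ, with no overlap and in the direction of Tlr9. Cox6a2 of that list had 18, 29 and 17 counts untreated and 28, 34 and 29 with IFN-γ, and its groups overlapped in CPM. Of the 3 tested markers of the list, which did not include Klk1 or Pacsin1, 1 was called higher. The summed level of the 5 markers, mostly Tcf4, was 44.5 to 49.6 CPM untreated and 68.3 to 71.5 with IFN-γ. The 5 B cell markers summed to 3.88 to 4.97 CPM untreated and 3.42 to 3.54 with IFN-γ. The 5 conventional dendritic cell markers summed to 1.48 to 2.06 and 4.98 to 5.79 CPM, and the 7 neutrophil markers to 70.5 to 93.9 and 120 to 133 CPM. Of the tested markers, 2 of 4 for conventional dendritic cells and 3 of 6 for neutrophils were called higher. The B cell list had 0 of 1, and over all genes 19.6% were higher. The part of these cells in the rise of Tlr9 was not tested.

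Tlr7 and Tlr8 both sense single-stranded RNA or its fragments and lie near each other on the X chromosome, both on the minus strand. The deposited tables place Tlr8 from 166024119 to 166047325 and Tlr7 from 166086376 to 166113570. Tlr7 was at 109, 92.5 and 112 CPM untreated and at 146, 145 and 145 CPM with IFN-γ. It rose by 0.48 ± 0.08 (1.39-fold, adjusted p = 0.0018 by edgeR). Tlr8 was at 112, 86.9 and 118 CPM untreated and at 112, 105 and 102 CPM with IFN-γ, so that the groups overlapped. Its log2 fold change was 0.01 ± 0.11, with a 95% interval from -0.24 to 0.26 (adjusted p = 0.945 by edgeR), and -0.11 without untreated replicate 2 (adjusted p = 0.138). The ratio of Tlr7 to Tlr8 TPM, in which the low values of untreated replicate 2 largely cancel, was 0.949, 1.04 and 0.928 untreated and 1.26, 1.35 and 1.39 with IFN-γ. The ratio was higher in all 3 IFN-γ libraries than in any untreated one. An exact test of 3 values against 3 cannot go below a two-sided p of 0.10, so no p is given for the ratios.

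Tlr13, which in mice senses bacterial ribosomal RNA, was the most abundant receptor and the only member called lower. Its counts were 15770, 11761 and 17545 untreated and 12686, 11672 and 11662 with IFN-γ. In CPM these were 524, 398 and 520, against 391, 380 and 376. The IFN-γ values were all below the untreated ones, but untreated replicate 2 was only just above them. The log2 fold change was -0.33 ± 0.10 (adjusted p = 0.0389 by edgeR), close to the threshold. Without untreated replicate 2 it was -0.45 ± 0.04 (adjusted p = 4.43e-05 by edgeR). Without any other library the call was lost, at -0.26 without untreated replicate 1 (adjusted p = 0.106) and -0.28 without untreated replicate 3 (0.123). Leaving out IFN-γ replicate 1, 2 or 3 gave -0.36, -0.33 and -0.32, with adjusted p of 0.0833, 0.114 and 0.118 by edgeR. With each library's trend on exon length removed it was -0.31 (adjusted p = 0.0132), and the direction was down in all 15 other settings.

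The levels of the members can be compared per length, in TPM. In untreated macrophages the order by mean TPM was Cd14 (696 ± 16.7, SD, n = 3), Tlr13 (263 ± 56.5), Tlr2 (62.4 ± 3.595), Tlr8 (43.0 ± 9.47), Tlr7 (41.4 ± 7.005), Tlr4 (28.7 ± 4.41), Tlr1 (28.1 ± 3.82), Tlr6 (7.55 ± 0.985), Tlr3 (6.43 ± 0.872) and Tlr9 (2.12 ± 1.03). The ranges over libraries overlapped between the neighbours Tlr8 and Tlr7, Tlr4 and Tlr1, and Tlr6 and Tlr3, and were separate between the others. With IFN-γ the order was Cd14 (637 ± 2.62), Tlr13 (191 ± 10.5), Tlr2 (159 ± 12.9), Tlr7 (52.7 ± 1.88), Tlr1 (51.7 ± 1.83), Tlr8 (39.6 ± 3.44), Tlr4 (39.4 ± 1.63), Tlr6 (18.8 ± 1.02), Tlr3 (13.5 ± 1.21) and Tlr9 (5.86 ± 1.25). There the ranges of Tlr7 and Tlr1, and of Tlr8 and Tlr4, overlapped. Tlr1 thus stood below Tlr8 in the untreated order and above it with IFN-γ.

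The surface and endosomal classes shifted in their balance. The 4 surface receptors, Cd14 left out, summed to 127 ± 12.8 TPM untreated and 269 ± 17.3 TPM with IFN-γ, while the 5 endosomal receptors summed to 356 ± 74.7 and 302 ± 18.2 TPM (SD, n = 3 each). The endosomal share of the summed TPM of these 9 receptors was 74.6, 70.6 and 75.0% in untreated replicates 1, 2 and 3, and 52.9, 52.9 and 53.2% with IFN-γ. Tlr13 alone made up 54.2 ± 2.12% of the sum untreated and 33.4 ± 0.227% with IFN-γ. Of the surface sum, Tlr2 alone made up 49.4 ± 2.29% untreated and 59.1 ± 0.994% with IFN-γ. The endosomal share without Tlr2 was not computed. Without Tlr13 the endosomal share was 42.8, 39.1 and 44.2% untreated and 29.5, 29.1 and 29.5% with IFN-γ, so the share was lower without Tlr13 too. The endosomal sum without Tlr13 was itself higher with IFN-γ, 92.9 ± 18.4 TPM untreated and 112 ± 7.71 TPM with IFN-γ (SD, n = 3 each), and the surface sum was higher by a larger factor. These shares are ratios within a library and do not depend on scaling between libraries.

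The fold changes of the classes overlapped more than the shares. The median log2 fold change was 1.00 over the 5 surface genes, from -0.01 to 1.46, and 0.48 over the 5 endosomal ones, from -0.33 to 1.61, against -0.014 over all genes tested. The median of the members was 0.79. Each class held genes that rose 2-fold or more and 1 gene that was not called, and the difference of 0.53 between the medians was not tested, since the members were chosen with earlier results known.

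**Figure D3:**
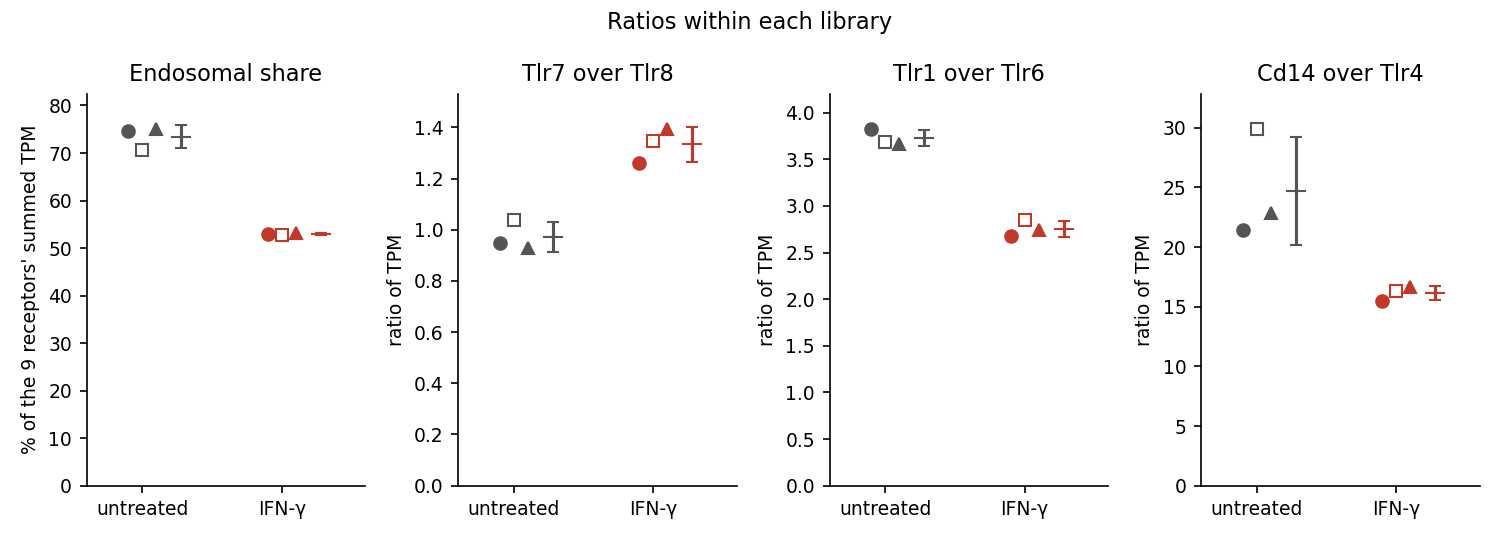
Ratios of TPM within each library: the endosomal share of the 9 receptors in percent, and the ratios of Tlr7 to Tlr8, Tlr1 to Tlr6 and Cd14 to Tlr4, for the untreated (grey) and IFN-γ (red) libraries, with mean and SD beside the points (replicates 1, 2 and 3 as circle, open square and triangle). In each panel the 3 IFN-γ points lie clear of the 3 untreated points.

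The remaining mouse receptors Tlr5, Tlr11 and Tlr12 were at the edge of detection and are named after their values were seen. Tlr11, a receptor for profilin of protozoan parasites, had 2, 3 and 2 counts untreated and 37, 41 and 37 with IFN-γ, a ratio of 16.3 (95% counting interval 7.65 to 41.4). Tlr12, its partner receptor, had 1, 0 and 0 counts untreated and 26, 16 and 25 with IFN-γ, a ratio of 66.4 (95% counting interval 11.5 to 2661). Both were called higher (adjusted p = 1.92e-05 and 0.000246 by edgeR), with no overlap of groups. Both passed the filter on low counts only through the IFN-γ libraries, so neither the calls nor the lack of overlap is independent support for a rise. With the filter of 5 CPM neither was tested. Their means over the 6 libraries, 0.649 and 0.36 CPM, stayed below that of Tlr9. The flagellin receptor gene Tlr5 had 10 to 17 counts untreated and 10 to 12 with IFN-γ and was not called (adjusted p = 0.526 by edgeR).

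The rest of the pathway was read from 5 lists of 67 genes, all of which were tested. Of these 31 were called higher and 2 lower, or 36 and 5 without untreated replicate 2. Over all genes 19.6% were higher and 16.8% lower, or 24.0% and 21.1% without that library. The median log2 fold change of the 67 genes was 0.22. Upper quartile scaling gave 23 higher and 7 lower, where 13.9% of all genes were higher and 31.6% lower. Total counts alone gave 22 and 8, where the shares over all genes were 12.8% and 34.9%. Removal of the length trend gave 42 and 4, where they were 25.8% and 20.2%.

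Of 8 partners of the surface receptors, 3 were higher and 0 lower by edgeR, against 19.6% and 16.8% of all genes. At an unadjusted p under 0.05 there were 5 higher and 1 lower. The share of all genes at that unadjusted threshold was not computed, here or for the lists below, so these counts have no background. DESeq2 and limma-voom called 0 lower too, while edgeR called 1 lower with upper quartile scaling, total counts alone or the filter of 5 CPM, and 5 higher with the replicate block or the length trend removed. Cd180, a receptor related to TLR4, rose by 1.13 ± 0.10 and its partner gene Ly86 by 0.45 ± 0.09. The integrin chain gene Itgb2 rose by 0.30 ± 0.08, a call lost with upper quartile scaling (0.15), total counts alone (0.13) and without untreated replicate 3 or IFN-γ replicate 1 or 2. Ly96, the partner of TLR4, was at 19.7 and 22.3 CPM (0.18 ± 0.10, adjusted p = 0.196 by edgeR). Thus of the lipopolysaccharide receptor complex Tlr4 was called, while Ly96 and Cd14 were not.

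Of 13 genes of receptor folding, trafficking and endosomal transport, 8 were higher and 1 lower, against 19.6% and 16.8% of all genes. The higher ones numbered 4 with upper quartile scaling or total counts alone, and 5 without IFN-γ replicate 1 or 2. The lower one was Cnpy4, a chaperone gene (20.4 to 16.9 CPM, -0.27 ± 0.08), named because it was the single one, and its call was lost without untreated replicate 1 or any IFN-γ replicate. Slc15a3, an endosomal peptide transporter gene, rose by 1.40 ± 0.09, and Tasl, an adaptor of endosomal receptor signalling, by 0.79 ± 0.07. Ap3b1, a subunit of a vesicle adaptor complex, rose by 0.42 ± 0.10, a call lost with upper quartile scaling (0.27), total counts alone (0.25) and without IFN-γ replicate 1 (0.34). Unc93b1, the chaperone gene of the endosomal receptors, went from 374 to 495 CPM (0.40 ± 0.05, adjusted p = 0.000668 by edgeR). Hsp90b1, whose product folds most Toll-like receptors, was at 1172 and 1259 CPM and was not called (0.10 ± 0.06, adjusted p = 0.24 by edgeR). Unc93b1, Hsp90b1 and Ly96 were added to the named genes for their known roles.

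Of 10 endosomal protease and nuclease genes, whose products cut receptors and ligands, 0 were called higher and 1 was lower by edgeR. Over all genes 19.6% were higher and 16.8% lower. At an unadjusted p under 0.05 the list had 3 higher and 2 lower. The gene called lower was Ctsl, the gene of cathepsin L, with a log2 fold change of -0.39 ± 0.09 (adjusted p = 0.00864 by edgeR). The count of higher genes was 4 without untreated replicate 2, 4 with the length trend removed, and 2 without IFN-γ replicate 1. In these fits 24.0%, 25.8% and 15.5% of all genes were higher. The count of lower genes was 2 without untreated replicate 1 or 2, and with upper quartile scaling or total counts alone. It was also 2 with the filter of 5 CPM, the replicate block or the length trend removed. DESeq2 called 2 higher and 2 lower, and limma-voom 1 higher and 1 lower.

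Of 22 adaptor, kinase and transcription factor genes, 13 were higher and 0 lower by edgeR, against 19.6% and 16.8% of all genes, or 14 and 0 at an unadjusted p under 0.05. DESeq2 and limma-voom called 0 lower, while edgeR called 1 lower with upper quartile scaling and 2 with total counts alone. Irak2 and Myd88, a kinase and the adaptor shared by most Toll-like receptors, rose by 1.23 ± 0.07 and 1.04 ± 0.06, and Ikbke, a kinase that acts on interferon regulatory factors, by 1.18 ± 0.07. Of 14 negative regulators, 7 were higher and 0 lower by edgeR, against the same 19.6% and 16.8% of all genes. At an unadjusted p under 0.05, 9 of these regulators were higher and 1 lower. DESeq2 and limma-voom called 0 of them lower, while edgeR called 1 without untreated replicate 2, with upper quartile scaling, total counts alone, the replicate block or the length trend removed. Socs1, an inhibitor of cytokine and receptor signalling, rose by 4.94 ± 0.11, and Tnfaip3 and Peli1, a ubiquitin-editing enzyme and a ubiquitin ligase, by 1.78 ± 0.08 and 1.52 ± 0.05.

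**Figure D4:**
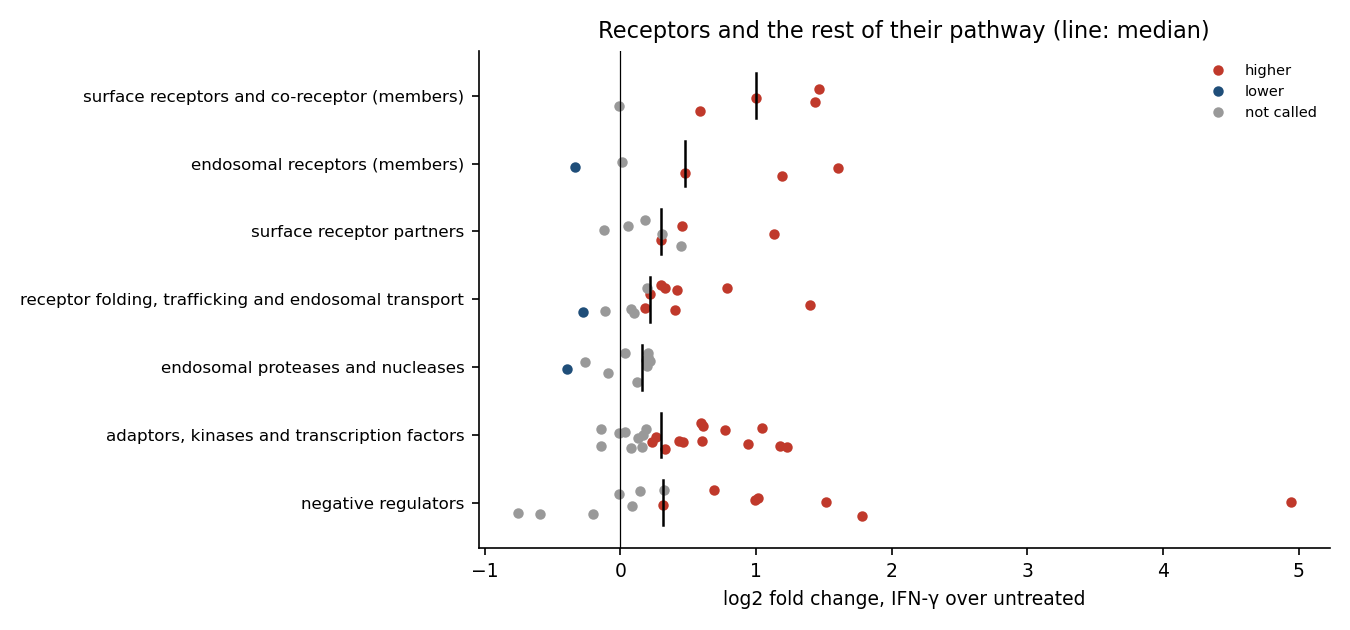
Log2 fold change, IFN-γ over untreated, of each tested gene of the receptor classes and of the 5 pathway lists (1 point per gene, spread vertically for legibility), coloured by call, with a line at each list's median. The 2 genes called lower outside the receptors are Cnpy4 and Ctsl, and the rightmost point is Socs1 at 4.94.

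Genes most like a member were taken by the smallest root mean square difference in log2 CPM, centred on each gene's mean, over the 6 libraries and 9611 genes of at least 5 CPM. For Tlr1 the closest was Kctd12 (0.019 log2 units), for Tlr2 Il21r and Gpr84 (0.029 each), for Tlr4 Mosmo (0.018) and for Tlr6 Slc31a1 (0.021). For Cd14 it was Zfand6 (0.015). For Tlr3 the closest was Irak2 (0.048), for Tlr7 Dmtf1 (0.021), for Tlr8 Dock6 (0.019) and for Tlr13 Topbp1 (0.033). Tlr9 had no gene as close, with Trim56 at 0.173. Within the family, Tlr2 was closest to Tlr6 and the reverse (0.073), Tlr4 and Tlr7 were closest to each other (0.061), and so were Tlr8 and Tlr13 (0.176). The family pairs crossed the surface and endosomal classes for Tlr4 with Tlr7 and for Tlr1 with Tlr3 (0.112), as did the nearest member of Cd14 (Tlr8, 0.218) and of Tlr9 (Tlr6, 0.432).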

How the data were processed

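The 6 libraries are listed with HISAT2, without a version, and build mm10 per the submitters' processing notes. Counting tool, strand use and the handling of multiply mapping reads were not stated in the sources used here. The deposited counts are whole numbers per gene, not normalized, and the deposited TPM were recomputed from them and the listed lengths to within 1.1e-13 of their value. The authors' FPKM were not used here. The tables' coordinates name no build, and those of Tlr1 and Tlr6 do not match GRCm38 (mm10). RefSeq GRCm38.p6 and GENCODE M21 were therefore matched by symbol only. Counts were tested with edgeR 4.0.16 in R 4.3.3: filterByExpr (minimum count 10, total 15), TMM scaling, glmQLFit and glmQLFTest, two-sided, adjusted over 12968 genes, threshold 0.05; standard errors are fold changes in log2 over the square root of F. The test was checked on simulated data. No pair of replicates agreed within sampling noise (smallest chi-square over its degrees of freedom 1.97). Counting intervals cover counting error only.

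Tried instead were scaling by RLE, by upper quartile or by total counts, no filter, 5 CPM in 3 samples, DESeq2 1.42.0, limma-voom (limma 3.58.1), a replicate block, a threshold of 0.01 and each library left out; the length trend (lowess, span 0.5) was added after seeing the data. The members and lists were chosen with earlier results of these data known. Named are all members and, per list, up to 3 called genes of at least 1 CPM with the largest changes. Figures used Python 3.11.15 and matplotlib 3.10.9.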

Additional observations from a re-analysis of the deposited data

How the results depend on the processing

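Tlr1, Tlr2, Tlr3, Tlr4, Tlr6, Tlr7 and Tlr9 were called higher in all 15 other fits, with 7 members higher in each. The count of members lower, 1 (Tlr13), became 2 with total counts alone, through Cd14, which put 1 surface gene lower, and 0 at a threshold of 0.01. It ran from 0 to 1 with 1 library left out, and so did the count of endosomal members lower, which was 0 at a threshold of 0.01. Of the 67 pathway genes, those lower numbered 2, against 7 with upper quartile scaling, 8 with total counts alone, 4 with a filter of 5 CPM, 4 with the replicate block, 4 with the length trend removed, 1 at a threshold of 0.01, and 1 to 5 with 1 library left out. Over all genes 2539 were higher and 2176 lower, against 4097 lower with upper quartile scaling, 1666 higher and 4520 lower with total counts alone, and 1242 lower at a threshold of 0.01. The cause of these shifts was not tested, beyond that a stricter threshold calls fewer genes. The surface minus endosomal difference in medians was 0.53, and between 0.50 and 0.56 in every setting run, a movement smaller than the SD between libraries of a group (0.098). A change of scaling shifts all genes alike, so it could hardly move this difference. The medians are the values of Tlr1 and Tlr7, so the difference describes that pair of genes and not a whole class. Shares of summed TPM are the same in CPM per kb by construction. Same-numbered libraries did not deviate together in every case (correlations 0.306, 0.144 and -0.0703). With so few libraries in a group, these correlations cannot settle whether the numbers pair the libraries. The replicate block left 7 members higher and 1 lower. Low counts limit what can be read from Tlr5, Tlr11 and Tlr12. For Tlr9 the SE was 0.29 with all libraries and 0.15 without untreated replicate 2.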
